A study of Mus musculus with 9 samples.

Results

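The genes described here are 31 genes of glucose use: those that trap glucose in the cell, carry it down glycolysis to pyruvate, turn pyruvate into lactate and back, export lactate, and store glucose as glycogen or release it again. They were chosen by name, with earlier results of these data known. They are the rows of the deposited gene count table whose symbol was on a list of 31. All 31 were present among the table's 20591 rows. The table covers the substantia nigra, a midbrain nucleus rich in dopaminergic neurons, which degenerate in Parkinson's disease, of wild type C57BL/6 mice that had all undergone a sham operation and had entered the study at 12 weeks of age. The 3 groups, of 3 RNA libraries each, were mice fed ad libitum for 1 week, mice fasted for 1 day, and mice held for 1 week on intermittent fasting, which comprised 3 fasts of 24 hours on alternate days, each begun 2 hours before lights off. Fed mice were moved between cages like the fasted ones, and all had water. The sources used here do not say how long after its last fast a mouse was sampled, or that libraries and animals correspond 1 to 1. The tests therefore weigh group differences against a spread between libraries that may in part be technical.

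Glycolysis splits glucose into pyruvate in a fixed chain of enzymes, most of which exist as isoenzymes encoded by separate genes. In brain, neurons and astrocytes divide this work: astrocytes hold nearly all of the brain's glycogen and release lactate, and neurons favour the form of lactate dehydrogenase that turns lactate back into pyruvate. In liver fasting lowers the genes of sugar breakdown and raises those of glucose release, while the brain goes on using glucose and adds ketone bodies.

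No member passed the test in any of the 3 comparisons (edgeR's quasi-likelihood test, Benjamini-Hochberg adjusted over 20535 genes, threshold 0.05). The list was drawn with earlier results known, so this count does not stand for glucose genes in general. After 1 week 2 glucose transporters that are not on it passed, as given below. Over all genes, 12 passed after the 1 day fast, which is 0.0584% of those tested, 63 genes or 0.307% after 1 week, and 0 genes or 0.00% between the fasting groups. The members' log2 fold changes against the fed group ran from -0.75 for Slc16a3 to 0.30 for Phka1 after 1 day and from -0.38 for Pfkfb4 to 0.46 for Hk2 after 1 week. Their medians were 0.00 and -0.02, against 0.00 and -0.00 over all genes. The smallest edgeR adjusted p of any member was 0.441 after 1 day, 0.364 after 1 week and 0.853 between the fasting groups. Both fasting groups were compared with the same 3 fed libraries, so the 2 sets of fold changes are not independent of each other.

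The median standard error of a member's log2 fold change was 0.13, against 0.19 for all genes. After 1 day the 95% interval lay within 2-fold in either direction for 29 of 31 members, the exceptions being Gapdh and Slc16a3, and within 1.5-fold for 23. After 1 week it lay within 2-fold for all 31 and within 1.5-fold for 24. Over all genes, 73.5% and 73.1% had an interval within 2-fold. For 1 week against 1 day, 31 members lay within 2-fold and 27 within 1.5-fold.

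At an unadjusted p under 0.05, 3 members stood after 1 day (1 higher, 2 lower), 2 after 1 week (1 higher, 1 lower) and 0 between the fasting groups. Those are 9.68%, 6.45% and 0% of the members, where the whole table had 9.27%, 11.2% and 5.22%. Groups whose 3 libraries did not overlap were seen for 8 members after 1 day (3 higher, 5 lower), beside 18.5% of all genes, and for 9 members after 1 week (2 higher, 7 lower), beside 22.4% of all genes. No member separated 1 week from 1 day in this way, beside 7.79% of all genes. The members' median absolute log2 fold change was 0.17 after 1 day and 0.12 after 1 week, where the 12799 genes with a mean log2 CPM of 2 or more had 0.15 and 0.13.

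**Figure D1:**
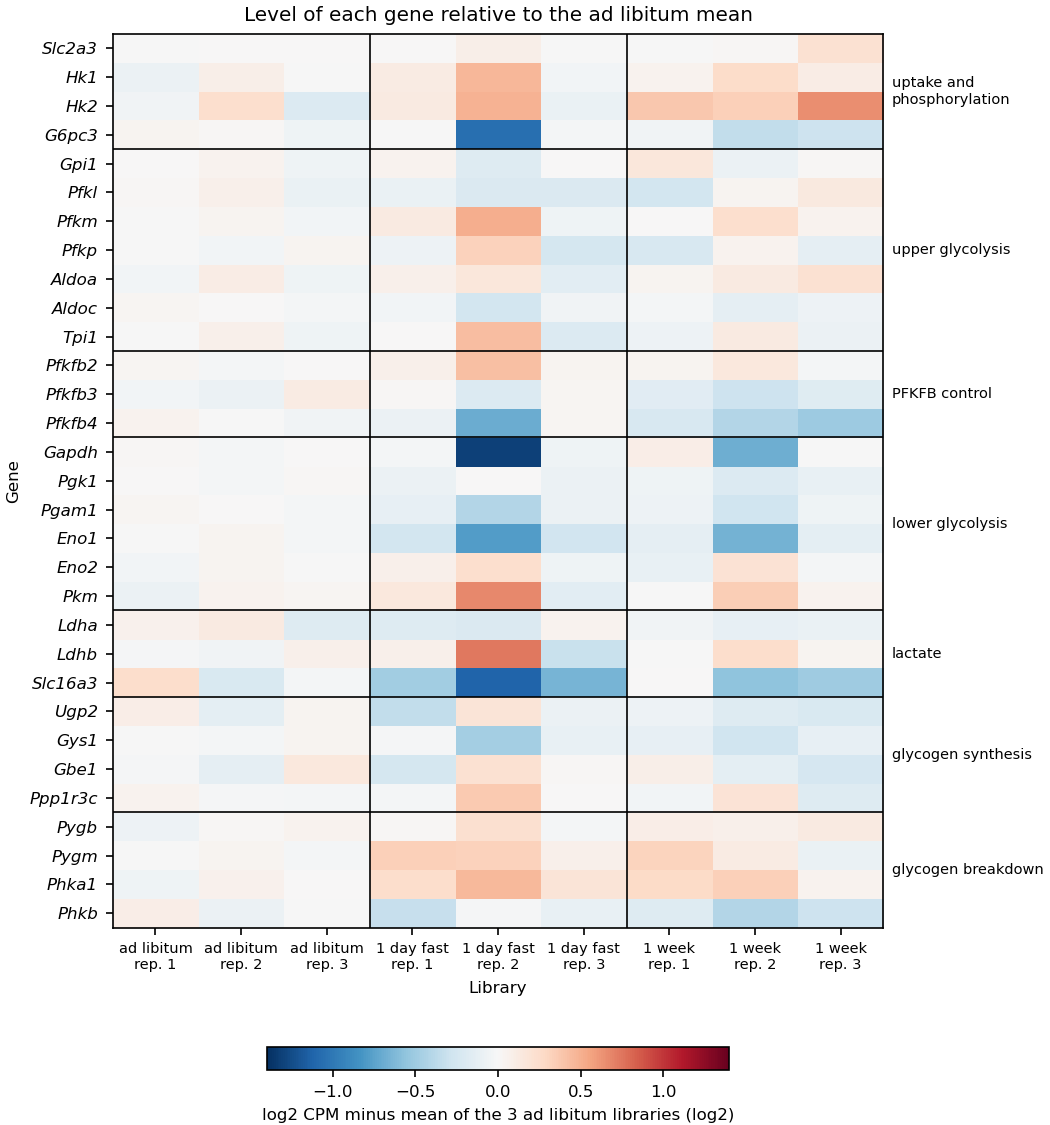
Level of each of the 31 genes (rows, grouped by role) in each of the 9 libraries (columns), as log2 CPM minus the mean of the 3 ad libitum libraries, with blue for lower and red for higher. The fed libraries are near 0 throughout, and the deepest blue is Gapdh in replicate 2 of the 1 day fast.

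Depth ran from 38516394 to 45693865 counts per library in the fed group, from 37732284 to 46522059 after 1 day and from 36109995 to 54248856 after 1 week. The 31 genes together took 1.01% ± 0.0458 (SD, n = 3) of the counts in fed mice, 1.07% ± 0.0784 after 1 day and 1.07% ± 0.0217 after 1 week. Defining markers of the labelled tissue were present: Th, which encodes tyrosine hydroxylase of dopamine synthesis, was at 76.1 to 296 CPM (counts relative to library depth, scaled by TMM) and Slc6a3, the dopamine transporter, at 184 to 526 CPM over the 9 libraries. Summed marker levels of astrocytes were 6595 to 6965 CPM in the fed group, 7336 to 9448 after 1 day and 7811 to 8462 after 1 week, while those of neurons were 5537 to 6038, 5465 to 6243 and 5387 to 5908. Those of oligodendrocytes were 11460 to 13980, 9902 to 11780 and 10550 to 11980. In each fasting group the highest astrocyte sum was that of replicate 2. Over the 9 libraries, 1 week replicate 2 had the lowest microglial (198 CPM) and endothelial (215) sums. The lowest blood sum (282) was in 1 day replicate 2. The oligodendrocyte sum of replicate 2 was the highest of the 1 day group and the lowest of the 1 week group. Replicate 3 of the 1 week group had a summed level of 655 CPM for the 7 markers of cortical or hippocampal excitatory neurons, where the other 8 libraries had at most 248. Its sums for blood (1506 CPM against at most 623) and for mural cells and meninges (375 against at most 321) were also the highest. The fed group had choroid plexus and ependyma sums of 36.35 to 394.6 CPM, beside 32.02 to 51.85 after 1 day and 29.69 to 77.14 after 1 week. Of these markers, Ttr was at 4.068, 15.13 and 334.6 CPM in fed replicates 1, 2 and 3. In such bulk tissue, fewer cells of a type and less RNA per cell cannot be told apart.

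In these genes the libraries of replicate 2 in both fasting groups deviated from the rest of their group in like manner, and they are called here the libraries that stood apart. They were singled out from these same data, so results without them describe the remaining libraries and are no separate test. Compared with the mean of its group's other libraries on the log2 scale, 1 day replicate 2 was more than 0.5 away for 8 members: Gapdh (-1.26), G6pc3 (-1.04), Pfkfb4 (-0.67), Slc16a3 (-0.55) and Eno1 (-0.52) were low, and Tpi1 (0.53), Pkm (0.67) and Ldhb (0.86) were high. In 1 week replicate 2 the same measure was -0.73 for Gapdh, -0.54 for Eno1, 0.32 for Pkm and 0.23 for Ldhb. Of the 31 members, 11 were low in both libraries and 11 high in both, and their deviations correlated across genes at r = 0.78, against 0.48 over 12769 genes. By the same measure, 4 members were more than 0.5 away in 1 day replicate 3 and 2 in 1 day replicate 1. There were 2 in 1 week replicate 2, 1 in 1 week replicate 1 and 0 in the remaining libraries. For replicates 1 and 3 the mean of the other libraries includes replicate 2. Their counts therefore do not by themselves show that those libraries deviated. Across the 12769 genes, deviation correlated with transcript GC content at -0.42 in 1 day replicate 2 and -0.09 in 1 week replicate 2, and at 0.57 in 1 day replicate 1 and 0.48 in fed replicate 2. Genes are not independent replicates, and with an offset for GC content 0 members passed in each comparison. The median coefficient of variation of the members was 3.81% in the fed group, 15.8% after 1 day and 8.68% after 1 week, where genes of a mean log2 CPM of 2 or more had 6.76%, 14.2% and 10.6%.

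**Figure D2:**
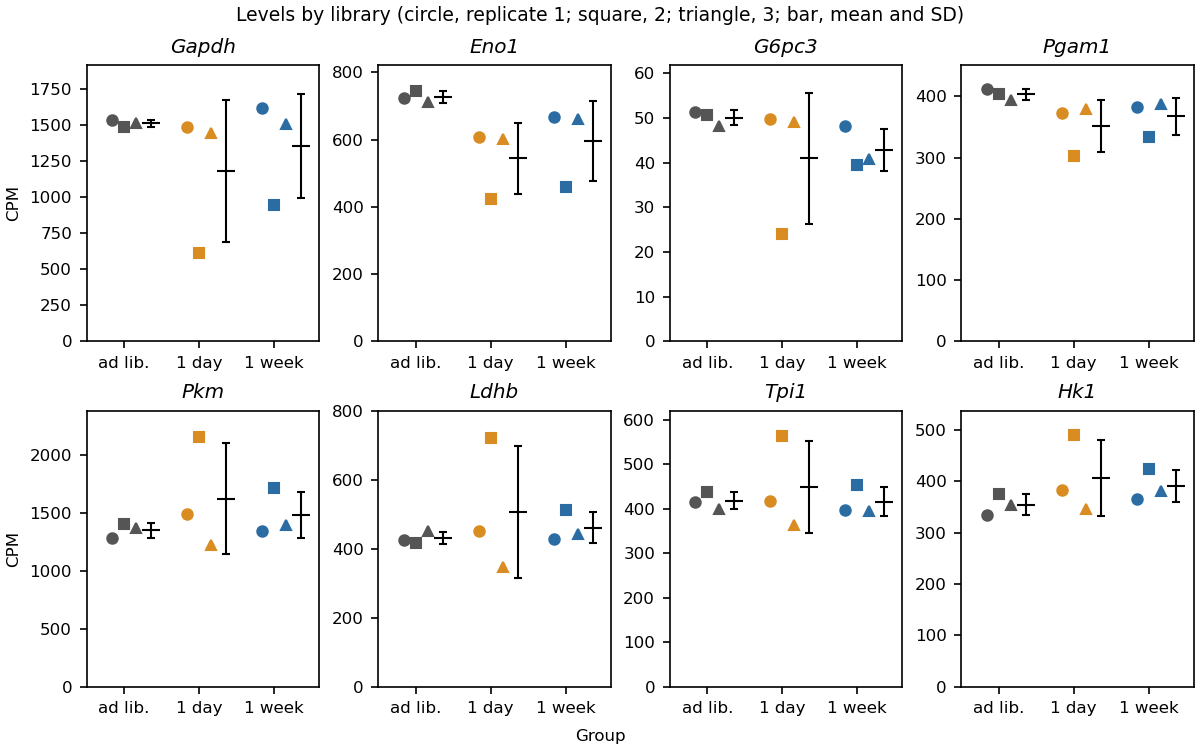
CPM of 8 genes by group, with a circle for replicate 1, a square for replicate 2, a triangle for replicate 3 and a bar for the mean and SD of the 3 libraries. Within each fasting group the square is the lowest point for Gapdh, Eno1, G6pc3 and Pgam1 and the highest for Pkm, Ldhb, Tpi1 and Hk1.

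Levels per kilobase of the longest coding transcript, the scale on which genes can be compared with each other, spanned more than 3 orders of magnitude in fed mice. Gapdh led with 1064 ± 16.7 CPM per kilobase, ahead of Aldoa with 783 ± 48.7, Pkm with 555 ± 26.0 and Eno1 with 358 ± 8.29 (SD, n = 3). Ldhb (331 ± 14.2) and Aldoc (331 ± 6.06) could not be ordered beyond their spread, and neither could Pgk1 (170 ± 3.22) and Gpi1 (167 ± 6.35). Glycogen genes sat far lower than the enzymes just named. Pygb was at 70.2 ± 3.01 and Pygm at 32.2 ± 0.718 CPM per kilobase, Gys1 at 6.46 ± 0.152 and Gbe1 at 5.70 ± 0.553. Some genes of glycolysis and lactate were lower than Pygb, among them Pfkp (54.9 ± 1.54) and Ldha (49.4 ± 5.31). Hk2 (1.03 ± 0.160) and Slc16a3 (0.847 ± 0.138) were the lowest of the 31, and their ranges overlapped. These values divide by a single transcript per gene, so a gene that mainly uses a shorter form has a higher level than given here.

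**Figure D3:**
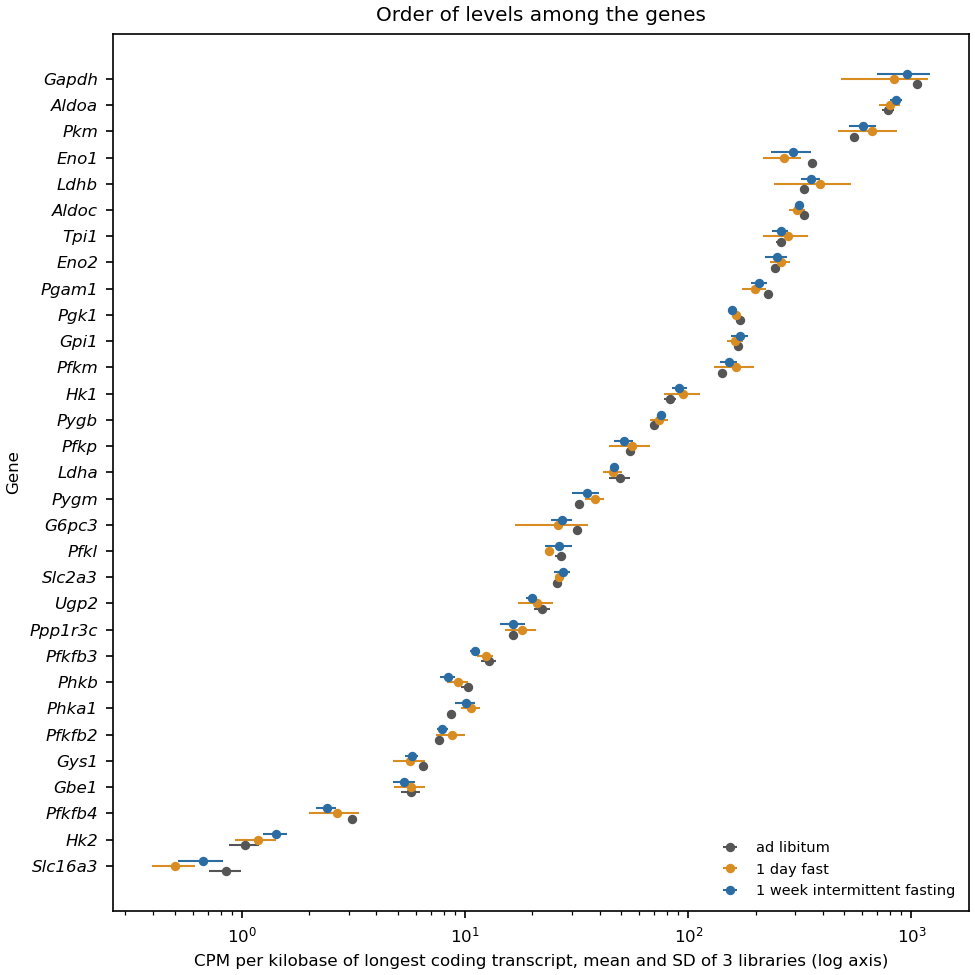
Mean level of each gene in CPM per kilobase of its longest coding transcript (log axis), with the SD of 3 libraries, for the ad libitum, 1 day and 1 week groups. The order runs from Gapdh (1064 in fed mice) down to Slc16a3 (0.847), and the 3 groups lie close together for most genes.

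Among the 4 members of glucose entry (Slc2a3, Hk1, Hk2 and G6pc3), Hk2 (ENSMUSG00000000628) had the largest difference after 1 week. It encodes a hexokinase, the enzyme that traps glucose as glucose 6-phosphate, and is the minor form in brain beside Hk1. Its level was 5.47, 6.68 and 4.96 CPM in the fed libraries, 6.19, 7.93 and 5.30 after 1 day, and 7.36, 7.14 and 8.94 after 1 week. The 1 week libraries were all above the fed ones, while the 1 day libraries overlapped both. The log2 fold change was 0.46 (SE 0.19, edgeR adjusted p = 0.411) after 1 week, 0.18 after 1 day, and 0.27 (SE 0.19, edgeR adjusted p = 0.853) for 1 week against 1 day. The highest of the 9 values was in 1 week replicate 3, the library with the high cortical, blood and mural marker sums. Without that library the 1 week value was 0.35 (SE 0.21, edgeR adjusted p = 0.699).

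Hk1, the main hexokinase of brain, was at 334, 375 and 353 CPM in fed mice, 383, 489 and 346 after 1 day and 365, 424 and 381 after 1 week, and the groups overlapped. Slc2a3, which encodes GLUT3, the glucose transporter of neurons, was the steadiest member in fed mice, at 102, 103 and 102 CPM. It was at 103, 108 and 102 CPM after 1 day and 102, 104 and 119 after 1 week, with its highest value in 1 week replicate 3. Its log2 fold changes were 0.03 (95% interval -0.18 to 0.23) and 0.08 (-0.12 to 0.28). G6pc3, the broadly expressed glucose 6-phosphatase that undoes the hexokinase step, was at 51.3, 50.7 and 48.1 CPM in fed mice and at 49.8, 24.0 and 49.1 after 1 day, with replicate 2 alone low. After 1 week it was at 48.2, 39.4 and 40.8 CPM, overlapping the fed group by a narrow margin.

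The 7 genes of upper glycolysis, from glucose 6-phosphate isomerase to triose phosphate isomerase, had log2 fold changes of -0.17 to 0.21 after 1 day and -0.10 to 0.12 after 1 week. Phosphofructokinase, the main control point of the pathway, is built from 3 subunits: muscle type Pfkm, liver type Pfkl and platelet type Pfkp. Pfkl was at 101, 105 and 93.5 CPM in fed mice, and at 93.1, 86.5 and 86.7 after 1 day, just below the fed range. After 1 week it was at 83.3, 102 and 110 CPM and overlapped both groups, and its log2 fold change for 1 week against 1 day was 0.15 (SE 0.11, edgeR adjusted p = 0.854). Aldoc, the aldolase typical of astrocytes, was at 937, 927 and 904 CPM in fed mice and 898, 773 and 894 after 1 day, below the fed range but with a log2 fold change of only -0.11 (SE 0.10). Aldoa, the form typical of neurons and muscle, overlapped in every comparison, as did Gpi1, Pfkm, Pfkp and Tpi1.

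The bifunctional enzymes of the PFKFB family make and remove fructose 2,6-bisphosphate, the strongest activator of phosphofructokinase. Pfkfb3, whose product chiefly makes the activator, was at 59.6, 57.7 and 66.4 CPM in fed mice, 61.7, 53.6 and 62.3 after 1 day and 54.8, 50.1 and 54.2 after 1 week. Pfkfb4 was at 11.2, 10.8 and 10.5 CPM in fed mice, 10.2, 6.66 and 11.0 after 1 day and 9.25, 8.15 and 7.60 after 1 week. For both genes every 1 week library was below every fed library, and the 1 day libraries overlapped the fed ones. The log2 fold changes after 1 week were -0.21 (SE 0.10, edgeR adjusted p = 0.496) for Pfkfb3 and -0.38 (SE 0.18, edgeR adjusted p = 0.488) for Pfkfb4. For 1 week against 1 day the groups overlapped, and the log2 fold change of Pfkfb3 was -0.16 (SE 0.10, edgeR adjusted p = 0.853). Pfkfb2, the form that insulin signalling activates in heart, was at 34.4, 33.0 and 33.8 CPM in fed mice and 35.5, 45.1 and 34.7 after 1 day. All 3 values after 1 day were above the fed range, 2 of them by a small margin, and the log2 fold change was 0.19 (SE 0.12, edgeR adjusted p = 0.588), or 0.06 without 1 day replicate 2. For 1 week against 1 day it was -0.14 (SE 0.12, edgeR adjusted p = 0.854), or 0.00 without that library.

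In lower glycolysis, Eno1 and Pgam1 were the only members whose 6 fasted libraries were all below the 3 fed ones, and no member had all 6 above. That is 6.45% of the members, where 8.28% of all genes had their 6 fasted libraries on the same side of the fed group (700 higher, 1000 lower). Eno1 (ENSMUSG00000063524) encodes the enolase of glia and most other tissues, and Eno2 the neuronal form. Eno1 was at 724, 744 and 711 CPM in fed mice, 609, 422 and 603 after 1 day, and 667, 458 and 663 after 1 week. Replicate 2 of each fasting group was well below its fellows, but the remaining libraries were also under the fed range. The log2 fold change was -0.42 (SE 0.18, edgeR adjusted p = 0.531) after 1 day and -0.29 (SE 0.18, edgeR adjusted p = 0.605) after 1 week. With both of the libraries that stood apart left out, the 1 day value was -0.26 (SE 0.073, edgeR adjusted p = 0.268). The 1 week value was then -0.12. Those libraries were singled out for deviations such as that of Eno1, so the smaller standard error follows from the choice and is no support.

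Pgam1, the phosphoglycerate mutase of brain, was at 412, 404 and 394 CPM in fed mice, 373, 302 and 379 after 1 day and 382, 333 and 388 after 1 week. The fasted libraries came close to the lowest fed value, apart from replicate 2 of each fasting group. The log2 fold change after 1 day was -0.20 (SE 0.11, edgeR adjusted p = 0.577), and -0.10 without the libraries that stood apart. A pseudogene copy of this gene, Pgam1-ps2, had 0 counts in exactly those 2 libraries and 5.95 to 18.5 CPM in the other 7, so the Pgam1 values are uncertain as far as reads could be assigned to either copy. For Eno1 the near-identical copy Eno1b had at most 1.22 CPM in any library, and the copies listed for Ldha and Aldoa had under 1 CPM.

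Gapdh, which is often used as a reference gene, had the widest interval of the lower glycolytic genes. It was at 1533, 1486 and 1515 CPM in fed mice, 1486, 610 and 1446 after 1 day and 1616, 941 and 1505 after 1 week. The low values were those of replicate 2 in each fasting group, and the other 4 fasted libraries lay between 1446 and 1616. Its log2 fold change was -0.36 (95% interval -1.06 to 0.35) after 1 day and -0.16 (-0.86 to 0.54) after 1 week. Left without those libraries, the values were -0.04 (SE 0.082) and 0.06 (SE 0.082). Pkm, which encodes pyruvate kinase of the last step, lay the opposite way in the same libraries: 1279, 1400 and 1372 CPM in fed mice, 1494, 2154 and 1220 after 1 day and 1342, 1712 and 1393 after 1 week. Pgk1, at 313, 304 and 315 CPM in fed mice and 298, 273 and 289 after 1 week, was below the fed range after 1 week by a log2 fold change of -0.12 (SE 0.087).

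**Figure D4:**
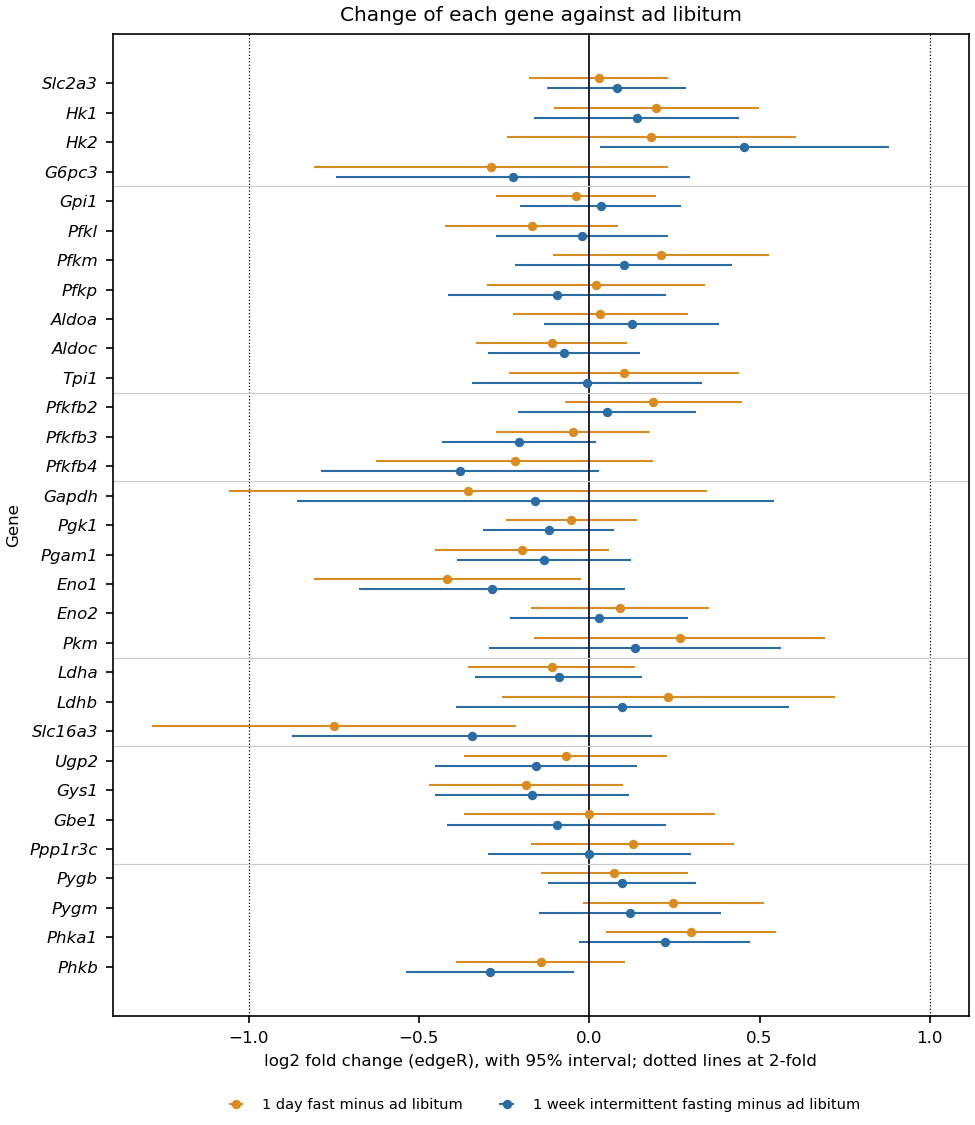
log2 fold change of each gene against ad libitum from edgeR (points) with its 95% interval (lines), for the 1 day fast in orange and 1 week of intermittent fasting in blue, and dotted lines at 2-fold. The intervals that reach past 2-fold are those of Gapdh and Slc16a3 after 1 day.

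The lactate genes gave the lowest p-value of any member after 1 day. Slc16a3 (ENSMUSG00000025161) encodes MCT4, the monocarboxylate transporter by which glycolytic cells, astrocytes in brain, export lactate. It was at 4.31, 3.12 and 3.58 CPM in fed mice, 2.58, 1.65 and 2.31 after 1 day and 3.64, 2.45 and 2.56 after 1 week. Every 1 day library was below every fed library, and the 1 week libraries spread across both ranges. The log2 fold change was -0.75 (SE 0.24, edgeR adjusted p = 0.441) after 1 day, -0.34 (edgeR adjusted p = 0.653) after 1 week and 0.41 (SE 0.24, edgeR adjusted p = 0.853) for 1 week against 1 day. Without the libraries that stood apart, the 1 day value was -0.59 (SE 0.22, edgeR adjusted p = 0.417).

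Lactate dehydrogenase is a tetramer of subunits encoded by Ldha, which favours making lactate, and Ldhb, which favours using it. Ldha was at 92.8, 97.3 and 78.8 CPM in fed mice, 79.0, 77.6 and 92.5 after 1 day and 86.2, 82.7 and 83.7 after 1 week. Ldhb was at 426, 418 and 453 CPM in fed mice, 453, 722 and 348 after 1 day and 429, 513 and 445 after 1 week. Neither gene separated the groups. The log2 fold changes of Ldha were -0.11 (95% interval -0.36 to 0.14) and -0.09 (-0.33 to 0.16), so both intervals lay within 1.5-fold. The interval of Ldhb after 1 day was wider, from -0.26 to 0.72, with replicate 2 as the highest of the 9 values.

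Of the 8 glycogen genes, 4 serve breakdown and 4 synthesis, and none passed. Glycogen phosphorylase cuts glucose units from glycogen, and phosphorylase kinase, a complex whose regulatory subunits include Phka1 and Phkb, switches it on. Phka1 (ENSMUSG00000034055) was at 50.3, 54.9 and 52.9 CPM in fed mice, 62.6, 72.2 and 59.6 after 1 day and 63.4, 66.6 and 54.4 after 1 week. All 1 day libraries were above the fed range, and in the 1 week group replicate 3 fell within it. The log2 fold change was 0.30 (SE 0.11, edgeR adjusted p = 0.503) after 1 day and 0.22 (SE 0.11, edgeR adjusted p = 0.514) after 1 week.

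Phkb (ENSMUSG00000036879), the partner subunit, lay on the other side. It was at 58.3, 51.5 and 54.5 CPM in fed mice, 43.9, 54.0 and 51.1 after 1 day and 48.3, 41.1 and 44.9 after 1 week. The 1 week libraries were all below the fed range, with a log2 fold change of -0.29 (SE 0.11, edgeR adjusted p = 0.364), the lowest p-value of any member in that comparison. For 1 week against 1 day it was -0.15 (SE 0.11, edgeR adjusted p = 0.853). Pygm, the muscle type phosphorylase that astrocytes also use, was at 92.5, 94.8 and 90.7 CPM in fed mice, 116, 116 and 97.4 after 1 day and 115, 100.2 and 87.1 after 1 week. Its 1 day libraries were above the fed range (log2 fold change 0.25, SE 0.12, edgeR adjusted p = 0.544), while its 1 week libraries ran from below that range to above it. Pygb, the brain type, was at 262, 278 and 284 CPM in fed mice and 292, 289 and 299 after 1 week, above the fed range by a log2 fold change of 0.10 (SE 0.097).

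The genes of glycogen synthesis had no member among the lowest p-values. Gys1, the glycogen synthase of brain, was at 23.6, 23.3 and 24.4 CPM in fed mice, 23.5, 17.1 and 22.0 after 1 day and 21.9, 19.6 and 21.9 after 1 week. The 1 week values were all below the fed range, by a log2 fold change of -0.17 (SE 0.13, edgeR adjusted p = 0.685). Ugp2, which makes the activated glucose that synthase uses, the branching enzyme gene Gbe1, and Ppp1r3c, which targets a phosphatase to glycogen, overlapped in both comparisons. Their log2 fold changes were between -0.07 and 0.13 after 1 day and between -0.16 and 0.00 after 1 week.

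Ratios between isoenzymes within a library do not depend on how libraries were scaled, and 7 such ratios were compared between the 3 pairs of groups (21 exact permutation tests, two-sided, for which 3 libraries against 3 allow no p below 0.1). The ratio of Pfkp to Pfkm counts was 0.560, 0.529 and 0.593 in fed mice, 0.487, 0.493 and 0.491 after 1 day, and 0.477, 0.492 and 0.497 after 1 week. The 6 fasted libraries lay close together and all below the fed ones, the libraries that stood apart included. On the log2 scale the ratio was -0.84 ± 0.082 (SD, n = 3) in fed mice, -1.03 ± 0.0087 after 1 day and -1.03 ± 0.031 after 1 week, and each difference from fed reached the smallest possible exact p of 0.1 (adjusted 0.35 over 21 tests). Because the fed libraries serve both comparisons, the second does not repeat the first.

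The ratio of Eno1 to Eno2, the glial against the neuronal enolase, was 1.09, 1.06 and 1.04 in fed mice, 0.849, 0.525 and 0.919 after 1 day and 1.05, 0.583 and 0.993 after 1 week. All 1 day values were below the fed ones (log2 difference -0.52, exact permutation p = 0.1, adjusted 0.35), and the 1 week values overlapped them (-0.33, exact p = 0.2, adjusted 0.467). The ratios of Pfkl to Pfkm (-0.36) and Pygb to Pygm (-0.17) also separated 1 day from fed at that smallest exact p, and Hk2 to Hk1 separated 1 week from 1 day (0.33). Single libraries moved these differences: without 1 day replicate 2, Eno1 to Eno2 was -0.27 and Pfkl to Pfkm -0.18, without 1 day replicate 1 Pygb to Pygm was -0.10, and without 1 week replicate 3 Hk2 to Hk1 was 0.21. The ratio of Ldha to Ldhb overlapped in each comparison, at 0.218, 0.233 and 0.174 in fed mice, 0.174, 0.107 and 0.266 after 1 day and 0.201, 0.161 and 0.188 after 1 week (log2 differences -0.27 with exact p = 0.7 and -0.18 with exact p = 0.3). So did Aldoc to Aldoa, with log2 differences of -0.14 (exact p = 0.6) and -0.20 (exact p = 0.2).

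Further genes of the same pathways, 74 on 5 lists of which 63 were tested, gave 2 that passed, both of them glucose transporters that rose after 1 week. Like the 31 members, these lists were chosen with earlier results of these data known. After 1 day and between the fasting groups none of the 63 passed by edgeR, with 11 and 7 of the 63 at an unadjusted p under 0.05, and 12 after 1 week. Over all genes that share was 9.27% after 1 day, 5.22% between the fasting groups and 11.2% after 1 week. Slc2a1 (ENSMUSG00000028645) encodes GLUT1, the transporter of the blood-brain barrier and of astrocytes. It was at 117, 135 and 138 CPM in fed mice, 211, 187 and 149 after 1 day and 212, 277 and 247 after 1 week, and no library of either fasting group fell in the fed range. The log2 fold change was 0.92 (SE 0.15, edgeR adjusted p = 0.0381) after 1 week and 0.49 (SE 0.15, edgeR adjusted p = 0.418) after 1 day. Slc2a4 (ENSMUSG00000018566) encodes GLUT4, the insulin-responsive transporter of muscle and fat, which is scarce in brain. It was at 3.17, 4.02 and 3.94 CPM in fed mice, 5.96, 4.91 and 6.76 after 1 day and 8.56, 8.10 and 9.20 after 1 week, again with no overlap. Its log2 fold change was 1.22 (SE 0.17, edgeR adjusted p = 0.0232) after 1 week and 0.66 (SE 0.17, edgeR adjusted p = 0.325) after 1 day. For 1 week against 1 day the values were 0.43 for Slc2a1 and 0.55 for Slc2a4 (both edgeR adjusted p = 0.853). Neither gene is on the list of 31, which holds Slc2a3 as its glucose transporter.

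Both transporter calls after 1 week held with other methods but were lost when any of 6 single libraries was left out. The DESeq2 adjusted p was 7.42e-06 for Slc2a1 and 9.06e-09 for Slc2a4. It was 0.02 and 0.00305 by limma voom, and 0.033 and 0.00921 by edgeR with the GC content offset. The edgeR adjusted p of Slc2a1 was 0.0833 with the libraries that stood apart left out, and that of Slc2a4 was 0.0225. With the replicate number as a block, Slc2a1 did not pass. Leaving out a single library raised the edgeR adjusted p of Slc2a1 above the threshold, so that it was no longer called, in 6 cases. These were fed replicates 1, 2 and 3 (0.227, 0.173 and 0.180), 1 day replicate 1 (0.0527), and 1 week replicates 2 and 3 (0.141 and 0.132). The same 6 omissions did so for Slc2a4 (0.169, 0.119, 0.113, 0.0526, 0.0603 and 0.0859). The log2 fold changes stayed between 0.83 and 1.01 for Slc2a1 and between 1.11 and 1.28 for Slc2a4 over the 9 omissions. The summed level of 9 endothelial markers was 275 to 335 CPM in fed mice, 242 to 262 after 1 day and 215 to 296 after 1 week. The astrocyte marker sums of both fasting groups lay above the fed range, as given above, and the part of either cell type in the result was not tested.

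**Figure D5:**
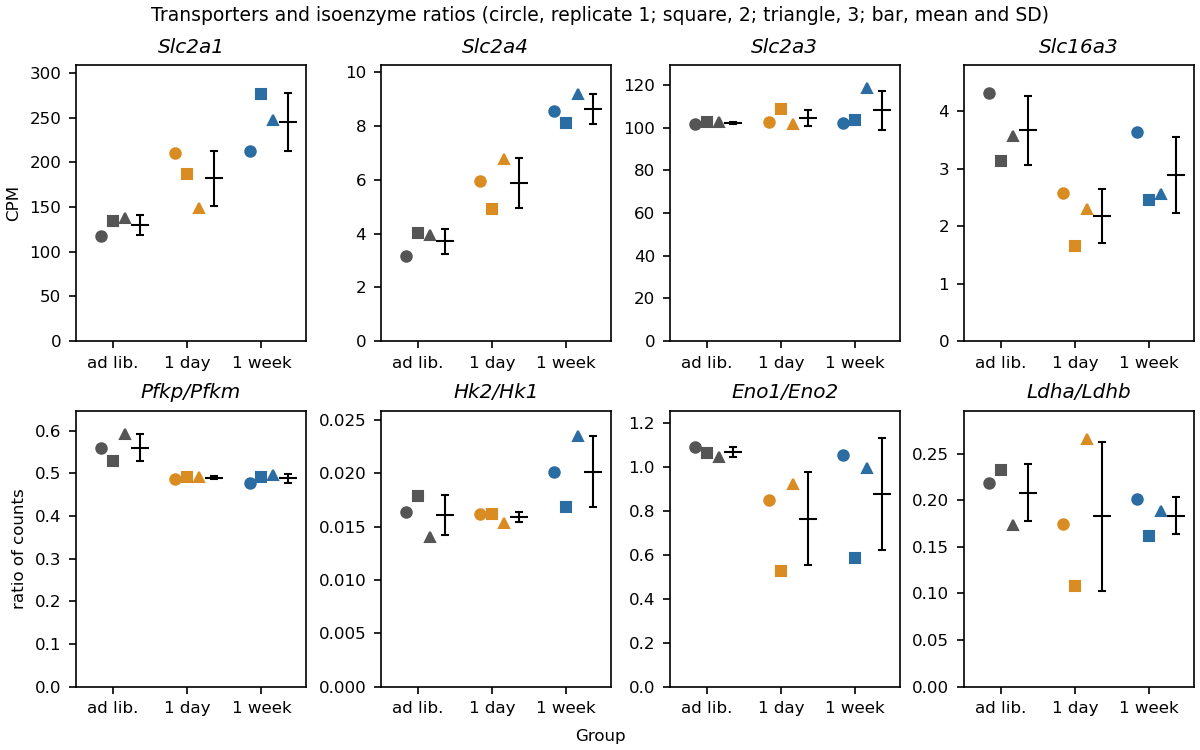
CPM of 4 transporter genes (top) and ratios of counts of 4 isoenzyme pairs (bottom) by group, with a circle, square and triangle for replicates 1, 2 and 3 and a bar for the mean and SD of 3 libraries. Slc2a1 and Slc2a4 lie above the fed group in all fasted libraries, Slc2a3 is between 102 and 119 CPM in every library, and the Pfkp to Pfkm ratio of the 6 fasted libraries lies between 0.477 and 0.497.

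None of the other listed genes passed. Of 12 genes tested for glucose and lactate transport, Bsg, the chaperone of the lactate transporters, had a log2 fold change of -0.40 (SE 0.14, edgeR adjusted p = 0.488) after 1 day, and Slc16a1, the lactate transporter MCT1, one of -0.51 (SE 0.15, edgeR adjusted p = 0.227) after 1 week. Emb, a further chaperone of this kind, was at -0.27 for 1 week against 1 day (edgeR adjusted p = 0.853). Of 19 other glycogen genes, Pgm1, which links glucose 6-phosphate to glycogen, came nearest. It was at 98.1 ± 3.40 CPM in fed mice, 132 ± 6.53 after 1 day and 126 ± 10.4 after 1 week (SD, n = 3), with log2 fold changes of 0.43 (SE 0.095, edgeR adjusted p = 0.217) and 0.36 (SE 0.095, edgeR adjusted p = 0.181). The glycogen-targeting subunit Ppp1r3g was at 1.20 (SE 0.35, edgeR adjusted p = 0.231) after 1 week, and the targeting subunit Ppp1r3f at 0.41 after 1 day (edgeR adjusted p = 0.531). Between the fasting groups Ppp1r3g was at 0.64 and Ppp1r3b at 0.92 (both edgeR adjusted p = 0.853).

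Among 18 other glycolytic genes, the hexokinase of blood and immune cells, Hk3, had log2 fold changes of -0.77 after 1 day and -0.63 after 1 week (edgeR adjusted p = 0.444 and 0.375) from a fed level of 1.76 CPM. Summed microglial markers were 314 to 343 CPM in fed mice, 224 to 260 after 1 day and 198 to 312 after 1 week, and summed blood markers were 446 to 483, 282 to 329 and 498 to 1506 CPM. Their part in the Hk3 values was not tested. The muscle enolase Eno3 was at 0.42 and 0.44 (edgeR adjusted p = 0.532 and 0.389), and Gpd1, which draws carbon off glycolysis to glycerol 3-phosphate, at 0.42 after 1 week (edgeR adjusted p = 0.411). Between the fasting groups Pgam2 was at 1.77 (edgeR adjusted p = 0.853), from a 1 day level of 0.176 CPM to 0.613 ± 0.419 after 1 week (SD, n = 3). Its fed level was 0.44 ± 0.14 CPM, with a log2 fold change of -1.31 after 1 day (SE 0.54, edgeR adjusted p = 0.528). All these levels are near the floor. Of 11 pentose phosphate genes, Taldo1 had the lowest p-values against fed, at -0.26 after 1 day and -0.28 after 1 week (edgeR adjusted p = 0.538 and 0.407). Prps1 (0.26) and Rpe (-0.32) came next after 1 day, H6pd (0.24) and Prps2 (-0.24) after 1 week, and Rpia (-0.29) and H6pd (0.31) led between the fasting groups, with edgeR adjusted p of 0.544 to 0.853. The 3 tested genes of glucose 6-phosphate transport and gluconeogenesis, Slc37a4, Pck2 and Pcx, had log2 fold changes of -0.22 to 0.02 against fed.

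Promoters of the members are shown for Slc16a3, Hk2 and Phka1, which were among the members with the lowest p-values, and for Ldha as the textbook target of the hypoxia-inducible factors. RefSeq windows from 250 bases before to 50 after each start were at hand for 30 of the 31 genes, on GRCm38.p6, an earlier build than the GRCm39 (mm39) named in the submitters' processing notes. They were searched on both strands for ACGTG, the core of the hypoxia-response element, which reads CACGT on the opposite strand and also occurs within the E-box CACGTG. Slc16a3 (chr11:120948817-120949116, plus strand), Hk2 (chr6:82774405-82774704, minus strand) and Ldha (chr7:46845554-46845853, plus strand) are printed 5′ to 3′ on the gene's strand with the core in capitals.
Slc16a3: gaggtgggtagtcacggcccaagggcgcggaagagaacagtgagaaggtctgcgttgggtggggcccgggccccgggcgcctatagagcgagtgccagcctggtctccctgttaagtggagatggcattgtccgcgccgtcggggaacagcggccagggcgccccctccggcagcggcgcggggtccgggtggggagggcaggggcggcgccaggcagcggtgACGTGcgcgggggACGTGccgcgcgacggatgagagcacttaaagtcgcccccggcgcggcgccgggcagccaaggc
Hk2: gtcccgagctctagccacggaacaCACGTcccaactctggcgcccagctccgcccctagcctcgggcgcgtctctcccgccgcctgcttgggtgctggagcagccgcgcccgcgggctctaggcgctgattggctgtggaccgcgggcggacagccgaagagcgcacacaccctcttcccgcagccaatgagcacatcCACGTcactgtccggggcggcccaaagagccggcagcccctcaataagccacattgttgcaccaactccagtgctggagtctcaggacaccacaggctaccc
Ldha: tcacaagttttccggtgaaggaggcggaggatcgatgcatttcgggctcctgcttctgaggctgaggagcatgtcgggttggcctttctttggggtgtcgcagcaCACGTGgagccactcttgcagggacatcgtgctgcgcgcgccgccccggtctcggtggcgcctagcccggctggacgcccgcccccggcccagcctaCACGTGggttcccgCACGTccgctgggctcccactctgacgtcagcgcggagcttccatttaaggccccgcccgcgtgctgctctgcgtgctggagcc

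The core was present in 22 of 45 windows of the members (48.9%), belonging to 18 of 30 genes (60.0%). Of 16799 windows of genes in the count table, 23.7% held it, and of all 32851 windows in the reference 19.6%. Counted by gene, 5886 of the 27025 genes in the reference (21.8%) had it in at least 1 window. The median GC content was 60.7% in the members' windows and 59.7% in those of the table's genes. Among the 18 genes with a core, Slc16a3 was on the low side after 1 day and Hk2 on the high side after 1 week, and Ldha overlapped the fed group throughout. Eno1 and Phkb had no match in these windows, which says only that these letters are not in them.

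The glucocorticoid-response palindrome ACANNNTGT was searched for in the same windows, since glucocorticoids are among the hormones of fasting. It was found in 1 of 30 genes (3.3%), Phka1, beside 7.9% of all genes in the reference. By window it was in 2.2% of the members' windows, where 4.7% of the windows of genes in the table and 6.8% of all windows held it. The Phka1 window (chrX:102644197-102644496, minus strand) is printed with the match in capitals.
Phka1: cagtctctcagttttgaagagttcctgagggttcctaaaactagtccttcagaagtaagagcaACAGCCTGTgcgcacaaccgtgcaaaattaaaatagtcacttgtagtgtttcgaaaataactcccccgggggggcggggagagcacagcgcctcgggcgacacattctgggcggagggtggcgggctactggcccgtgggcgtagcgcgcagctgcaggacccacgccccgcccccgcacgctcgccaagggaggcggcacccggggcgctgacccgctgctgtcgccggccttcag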

How the data were processed

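PolyA RNA was sequenced from libraries made with a directional kit, per the labels' protocols. The deposited table holds whole-number gene counts, and the submitters' processing notes name Salmon and DESeq2 1.40.2 and the builds GRCm39 and mm39. The sources used here do not say how the authors went from transcripts to genes or filtered rows. Columns were matched to samples by the name in each sample's description, and 0 columns stayed unmapped.

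Counts were fitted with edgeR 4.0.16 in R 4.3.3 (TMM scaling, robust quasi-likelihood F test, group means over all 9 libraries). Genes passed filterByExpr with a minimum count of 10 and a minimum total of 15, which removed 56 of 20591 rows and no member. The table's lowest row mean was already 9.89. p-values are two-sided and Benjamini-Hochberg adjusted over all 20535 genes, with a threshold of 0.05. Levels are CPM scaled by TMM. Isoenzyme ratios added 0.5 to each count. No 2 libraries agreed within sampling noise (every pair had a chi-square of 26.5 or more per gene).

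Statistics are given for members past the test and for the 6 with the smallest p in each comparison, and for genes of the 5 further lists past the test or among the 3 smallest p, except 2 that are not reported here. The members and lists were chosen with earlier results of these data known. Marker lists of 10 cell types were summed. Transcript length and GC content came from GENCODE M21, which held 99.5% of the table's genes and all 31 members. The fit was tested on simulated data. Alternatives were RLE scaling, DESeq2 1.42.0, limma 3.58.1 (voom with quality weights), no filter, a filter of 1 CPM in 6 libraries and a replicate block. Further ones were the 6 libraries of the groups compared, each library left out, and 2 libraries left out together. Those 2 libraries were singled out from the data. An offset for GC content was added after seeing the data.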

Additional observations from a re-analysis of the deposited data

How the results depend on the processing

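The number of members past the threshold was 0 in all 54 results, each of them 1 alternative setting in 1 of the 3 comparisons. The lowest edgeR, DESeq2 or limma adjusted p of a member was 0.14 (limma voom, 1 week). The counts over all genes moved. After 1 day they were 12 in the fit reported, 180 with DESeq2, 57 with limma voom, 26 with the 6 libraries alone, 50 without 1 day replicate 2 and 1 week replicate 2 together, and 0 to 22 with each library left out. After 1 week they were 63, then 458, 218 and 155 in the first 3 of those settings, 96 with the GC content offset, and 8 to 121 with each library left out. Between the fasting groups they were 0, then 3 with DESeq2 and 0 to 3 with each library left out. The causes were not tested.

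The members' median log2 fold change between the fasting groups was -0.06 in the fit reported, 0.0057 with limma voom, 0.0199 without both libraries that stood apart, and -0.081 to 0.0173 with each library left out. It was -0.0359 to 0.0387 after 1 day and -0.0549 to -0.0095 after 1 week with each library left out. Of the named genes, Pfkfb2 turned sign for 1 week against 1 day (3e-04 without 1 day replicate 2, over a range of -0.2033 to 0.0003), and Slc2a4 passed after 1 day with DESeq2 (adjusted p = 0.0316). Among the ratios of isoenzymes (log2 differences), Ldha to Ldhb turned sign without both libraries, at 0.0593 after 1 day and -0.1476 between the fasting groups. With single libraries left out, its ranges were -0.5941 to 0.0593 and -0.2371 to 0.4162. Ranges that crossed 0 were also those of Hk2 to Hk1 after 1 day (-0.1044 to 0.0668), Pygb to Pygm after 1 week (-0.1297 to 0.0873) and, between the fasting groups, Aldoc to Aldoa (-0.1967 to 0.0621), Eno1 to Eno2 (-0.0591 to 0.4601) and Pfkp to Pfkm (-0.018 to 0.0119).

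Same-numbered samples did not deviate together throughout: 3 of 9 pairs of libraries had a correlation over 0.1 (range -0.309 to 0.477, the highest for replicate 2 of the fasting groups), and 3 of 9 libraries correlated best with their own number. With the replicate number as a block the counts over all genes were 2 after 1 day and 32 after 1 week, no member passed, and the adjusted p of Slc2a1 was 0.0921. The shallowest members were Slc16a3, Hk2 and, in the fasting groups, Pfkfb4, with means under 10 CPM. With 3 libraries a group, 1 library sets much of the spread.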
